A study of Mus musculus with 8 samples.

Results

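The translation factor eIF5A is the only protein known to carry hypusine, a modified lysine that is made with the polyamine spermidine. RNA of 10 genes of this system was compared between iTreg sorted as Nrp-1+ and iTreg sorted as Nrp-1-. They are Eif5a, the hypusine enzymes Dhps and Dohh, the polyamine synthesis genes Odc1, Srm, Sms and Amd1, the acetyltransferase gene Sat1, and Oaz1 and Azin1, which control ornithine decarboxylase. The genes were chosen by symbol, and each of the 10 had its own row among the 23361 gene symbols of the table. All 10 reached a mean of at least 1 FPKM, a fragment number divided by exon length and by the mapped fragments of the library, and so were among the 10467 genes tested.

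The iTreg are regulatory T cells made in culture from naive CD44low CD62Lhigh CD4+ T cells of B6 Foxp3-RFP mice, in which a red fluorescent protein reports Foxp3. The mice were WT by genotype label and 7 to 8 weeks old by the methods. Cells of both groups received anti-CD3/CD28 microbeads, IL-2 and TGF-β (2 ng/ml), with IL-2 at 50 U/ml in the labels and at 10 ng/ml in the methods. Viable CD4+ Foxp3-RFP+ cells were then split by surface Nrp-1, and 4 libraries were made for each side of the sort, numbered as biological replicates. The labels give both 3 days of culture and Day 5, and the methods place the sort at day 3. The nTreg libraries of the study were not analysed here. Nothing states whether the 4 replicates were separate cultures or mice, so p-values measure the spread between these libraries, which may be technical.

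Polyamine synthesis starts when ornithine decarboxylase (Odc1) turns ornithine into putrescine. Spermidine synthase (Srm) and spermine synthase (Sms) then add aminopropyl groups, which come from S-adenosylmethionine after its decarboxylation by Amd1. Deoxyhypusine synthase (Dhps) moves part of spermidine onto a single lysine of eIF5A, and deoxyhypusine hydroxylase (Dohh) completes the hypusine, without which eIF5A does not do its work in translation elongation. Activated T cells raise polyamine synthesis when they grow and divide.

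Of the 10 genes, 4 were higher in Nrp-1+ iTreg (Eif5a, Odc1, Sms and Azin1), 1 was lower (Sat1), and 5 did not pass an adjusted p of 0.05 in limma (Dhps, Dohh, Srm, Amd1 and Oaz1). Among all tested genes, 40.9% passed this threshold, made up of 20.9% that were higher and 20.0% that were lower in Nrp-1+ iTreg. A count of 5 in 10 is therefore near the background. The 4 libraries of one group did not overlap the 4 of the other for the same 5 genes, and for 39.5% of all tested genes. The median log2 fold change of the 10 genes was 0.09, and that of all tested genes was -0.02. All log2 fold changes are on the log2(FPKM + 1) scale, Nrp-1+ minus Nrp-1-.

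**Figure D1:**
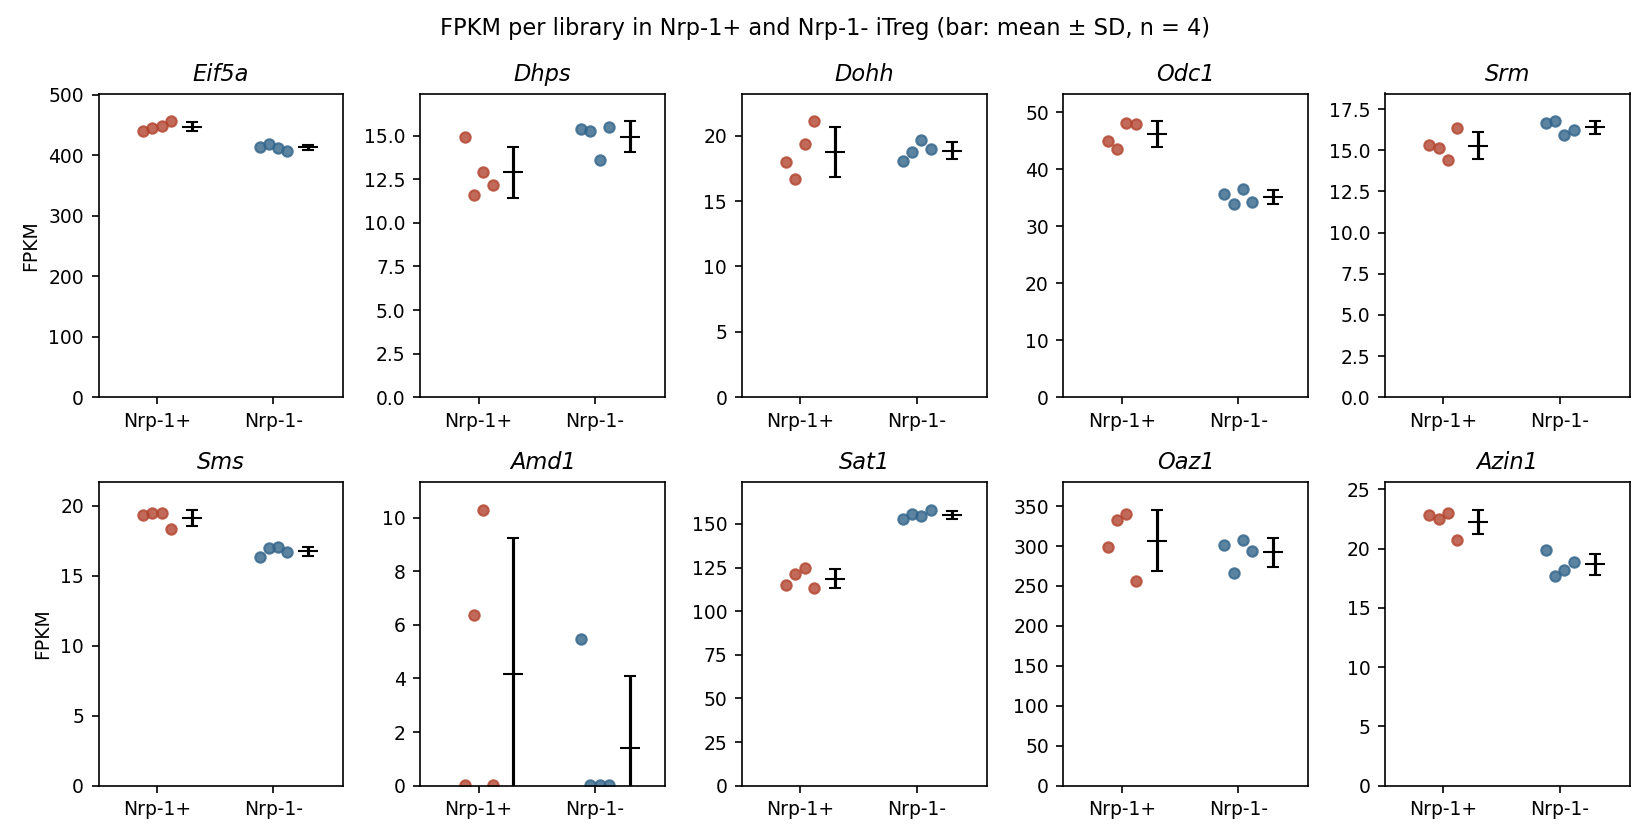
FPKM (vertical axes, each from 0) of the 10 genes in each library of Nrp-1+ iTreg (red) and Nrp-1- iTreg (blue), with the mean ± SD of 4 libraries beside the points. Eif5a, Odc1, Sms and Azin1 lay higher and Sat1 lower in all 4 Nrp-1+ libraries, whereas Amd1 was near 0 in some libraries of both groups; its SD bars are cut at 0.

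Checks of the libraries concern each result below. Nrp1, the gene of the sort marker, measured 21.5 ± 0.709 FPKM in the Nrp-1+ libraries and 4.95 ± 0.262 FPKM in the Nrp-1- libraries (SD, n = 4). All 12 proliferation markers were higher in Nrp-1+ iTreg, for example Mki67 (82.3 against 46.3 FPKM) and Top2a (346.2 against 173.2 FPKM), and their summed level was 1815 to 1860 FPKM against 1004 to 1026 FPKM. The part of cell division in the polyamine values was not tested. All 6 CD4 T and Treg markers were expressed, summing to 1340 to 1368 FPKM in Nrp-1+ and 1355 to 1422 FPKM in Nrp-1- iTreg. Within that sum, the libraries did not overlap for Foxp3 (111.5 to 120.5 FPKM in Nrp-1+ against 107.1 to 109.9), Il2ra (258.9 to 270.8 against 222.7 to 230.7) and Ikzf2 (2.49 to 2.63 against 1.79 to 1.90), all higher in Nrp-1+ iTreg, nor for Cd3d (429.0 to 447.6 against 465.1 to 514.8), which was lower. Summed markers of other cells reached at most 11.3 FPKM: CD8 T cells 7.10 to 8.78 against 9.33 to 11.3 FPKM, B cells 5.21 to 5.91 against 4.01 to 5.80 FPKM with Ms4a1 at 0, myeloid cells 6.46 to 7.22 against 5.41 to 6.23 FPKM, NK cells 3.29 to 4.37 against 3.88 to 4.99 FPKM and dendritic cells at most 0.148 FPKM in either group. In each of the CD8 T, B, myeloid and NK lists only 1 gene averaged at least 1 FPKM, namely Cd8b1, Cd79b, Itgam and Klrd1. These sums are therefore mostly the level of 1 gene, and Cd8a reached at most 0.111 FPKM in any library. Of 3 erythroid markers only Hba-a1 averaged above 1 FPKM, and their sum was 5.50 to 7.56 against 2.01 to 3.28 FPKM. Sequencing depth relative to the first Nrp-1+ library ran from 0.993 to 1.22 in Nrp-1+ and from 0.809 to 1.23 in Nrp-1- iTreg, and the absolute depth is unknown. Short RNA genes took 1.81% to 38.9% of the summed FPKM in Nrp-1+ libraries and 4.49% to 44.0% in Nrp-1- libraries. In bulk RNA, fewer cells of a type and less RNA per cell cannot be told apart.

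Eif5a had the highest mean FPKM of the 10 genes, counting 1 row per gene, and was slightly higher in Nrp-1+ iTreg. Its product is the acceptor of hypusine, and the target lysine lies at the tip of a conserved loop. The 45 coding bases around codon 50 of 154 (lysine, in capitals) are shown for Eif5a, beside the same stretch of its paralog Eif5a2, because the paralog carries the same lysine codon. They were read 5′ to 3′ from GENCODE M21 transcripts. Eif5a lies at chr11:69916712-69921958 and Eif5a2 at chr3:28781032-28798846 (RefSeq, GRCm38.p6), and both stretches are coding exon sequence.
Eif5a: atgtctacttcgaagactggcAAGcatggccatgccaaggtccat
Eif5a2: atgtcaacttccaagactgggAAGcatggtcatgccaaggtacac
The coding sequences differ at 123 of 459 aligned bases (73.2% identity), and no run of 50 bases was shared between both genes, as none of the Eif5a2 transcript was found in any other gene.

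Eif5a measured 439.4, 444.8, 448.0 and 456.5 FPKM in Nrp-1+ iTreg replicates 1 to 4 and 413.3, 418.8, 412.6 and 407.2 FPKM in Nrp-1- iTreg replicates 1 to 4. Every Nrp-1+ library lay above every Nrp-1- library. The means were 447.2 ± 7.16 and 413.0 ± 4.78 FPKM (SD, n = 4), a difference of 8.29% (log2 fold change 0.11, SE 0.02, 95% interval 0.07 to 0.16, limma adjusted p = 0.00268). The exact two-sided permutation test gave p = 0.0286, the smallest value that 4 against 4 libraries allow. The call was lost after quantile normalization (limma adjusted p = 0.290), although the log2 fold change there was 0.12, and after correction for GC content and transcript length (adjusted p = 0.407), where the log2 fold change was 0.07. By size, the difference ranked 3863 among the 4282 genes that passed the threshold, whose median absolute log2 fold change was 0.22.

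Neither hypusine enzyme gene passed the threshold, and the interval of Dhps lay below 0 while that of Dohh spanned it. Dhps, at chr8:85071486-85075162, encodes the enzyme that transfers the aminobutyl group of spermidine to the lysine shown above. Its level was 14.9, 11.6, 12.9 and 12.2 FPKM in the Nrp-1+ libraries and 15.4, 15.3, 13.6 and 15.5 FPKM in the Nrp-1- libraries. The groups overlapped through Nrp-1+ replicate 1, the highest of its group, and Nrp-1- replicate 3, the lowest of its group. The mean was 12.9 ± 1.45 against 15.0 ± 0.889 FPKM (log2 fold change -0.20, 95% interval -0.37 to -0.03, limma adjusted p = 0.0607, exact permutation p = 0.0571). Dhps passed without Nrp-1+ replicate 1 (limma adjusted p = 0.00853), without Nrp-1- replicate 3 (0.0428), without short RNA genes (0.0275) and after correction for GC content and length (0.0210), with lower values in Nrp-1+ iTreg each time.

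Dohh, at chr10:81384434-81388352, encodes the iron-dependent hydroxylase of the second step. It measured 18.0, 16.7, 19.4 and 21.1 FPKM in the Nrp-1+ libraries and 18.1, 18.8, 19.7 and 19.0 FPKM in the Nrp-1- libraries. The Nrp-1- values fell inside the range of the Nrp-1+ values. The log2 fold change was -0.01 with a 95% interval of -0.16 to 0.14 (limma adjusted p = 0.918), and its sign turned when Nrp-1+ replicate 1 or 2 or Nrp-1- replicate 3 was left out. Of the 50-base windows of the Dohh transcript, 66.2% also occur in the GENCODE M21 gene Gm48551, which has no row in the table, so the Dohh values may hold fragments of both.

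Within each library, the ratio of a hypusine enzyme to its substrate gene does not depend on the scaling between libraries. The log2 ratio of Dhps to Eif5a was -5.12 ± 0.17 in Nrp-1+ and -4.79 ± 0.09 in Nrp-1- iTreg, a difference of -0.33 with overlap between the groups. For Dohh to Eif5a the difference was -0.13, also with overlap.

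Odc1, at chr12:17544808-17551502, encodes the enzyme that commits ornithine to polyamines and whose protein is degraded within a short time of its synthesis. The Nrp-1+ libraries measured 45.0, 43.6, 48.2 and 48.0 FPKM, and the Nrp-1- libraries measured 35.7, 33.9, 36.5 and 34.3 FPKM. The lowest Nrp-1+ library was above the highest Nrp-1- library. Means of 46.2 ± 2.27 and 35.1 ± 1.22 FPKM gave an increase of 31.7% (log2 fold change 0.39, SE 0.04, 95% interval 0.29 to 0.48, limma adjusted p = 0.000139, exact permutation p = 0.0286). Leaving out single libraries gave log2 fold changes of 0.37 to 0.41. The Odc1 transcript shares 42.2% of its 50-base windows with 15 other annotated genes, most of all with Gm7993 (20.3%), which has no row in the table.

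Sms, at chrX:157443851-157492287, encodes the synthase that makes spermine from spermidine. It stood at 19.3, 19.5, 19.5 and 18.3 FPKM in the Nrp-1+ libraries and at 16.3, 16.9, 17.0 and 16.7 FPKM in the Nrp-1- libraries. The groups did not overlap, and Nrp-1+ replicate 4 lay apart from the other libraries of its group. Sms was 14.3% higher in Nrp-1+ iTreg (19.1 ± 0.570 against 16.7 ± 0.321 FPKM, log2 fold change 0.18, SE 0.03, 95% interval 0.12 to 0.25, limma adjusted p = 0.00118, exact permutation p = 0.0286). A pseudogene, Sms-ps, shares 28.7% of the 50-base windows of the Sms transcript.

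Srm, at chr4:148591513-148594619, encodes the synthase that makes spermidine from putrescine, and it did not pass the threshold. Its FPKM was 15.3, 15.1, 14.4 and 16.3 in Nrp-1+ iTreg and 16.6, 16.8, 15.9 and 16.3 in Nrp-1- iTreg. Nrp-1+ replicate 4 lay within the range of the Nrp-1- libraries and the other 3 Nrp-1+ libraries below it. The log2 fold change was -0.10 with a 95% interval of -0.18 to -0.01 (limma adjusted p = 0.0770, exact permutation p = 0.0857). It passed without Nrp-1+ replicate 4 (limma adjusted p = 0.0188), after quantile normalization (0.0364) and with array weights (0.0450). The log2 ratio of Srm to Sms within a library was -0.32 ± 0.12 in Nrp-1+ and -0.03 ± 0.05 in Nrp-1- iTreg. These ratios did not overlap, and the difference of -0.29 is a ratio of 0.815 between the groups.

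Amd1 encodes S-adenosylmethionine decarboxylase, the source of the aminopropyl donor. Its values fell into high and low libraries that did not follow the groups: 0.0252, 6.38, 10.3 and 0.0290 FPKM in the Nrp-1+ libraries and 5.47, 0.0231, 0.0288 and 0.0289 FPKM in the Nrp-1- libraries. The Amd1 gene (chr10:40287458-40302188) has a near-identical copy, Amd2 (chr10:35708691-35711891), with a row of its own. The coding sequences of both differ at 1 of 1002 bases, which is shown in capitals at the end of this stretch from codon 246 of 334, read from GENCODE M21 transcripts.
Amd1: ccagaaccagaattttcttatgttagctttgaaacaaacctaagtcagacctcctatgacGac
Amd2: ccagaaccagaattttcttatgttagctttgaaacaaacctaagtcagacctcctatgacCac
Over the whole transcript, 14 of 3204 aligned bases differ, and 86.1% of the 50-base windows of Amd1 are found in Amd2.

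Amd2 measured 18.1, 11.6, 8.51 and 16.4 FPKM in the Nrp-1+ libraries and 11.2, 17.1, 17.2 and 17.0 FPKM in the Nrp-1- libraries. It was low in the 3 libraries in which Amd1 was high, namely Nrp-1+ replicates 2 and 3 and Nrp-1- replicate 1. Summed over both rows, the level was 18.1, 18.0, 18.8 and 16.4 FPKM in Nrp-1+ and 16.6, 17.1, 17.3 and 17.0 FPKM in Nrp-1- iTreg. The SD of Amd1 alone was 5.06 and 2.72 FPKM in Nrp-1+ and Nrp-1- iTreg, and that of the sum was 1.01 and 0.266 FPKM. Amd1 alone gave a log2 fold change of 0.91 with a 95% interval of -1.33 to 3.15 (limma adjusted p = 0.486). The sum, which was formed after the values were seen, gave 0.06 with an interval of -0.03 to 0.15 (limma adjusted p = 0.232, exact permutation p = 0.143). Amd1 on its own is therefore uncertain in these data, and no difference in the sum was detected between the groups. The log2 ratio of Amd1 + Amd2 to Odc1 was -1.37 ± 0.12 in Nrp-1+ and -1.05 ± 0.05 in Nrp-1- iTreg, without overlap.

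Antizyme 1 (Oaz1) binds ornithine decarboxylase, sends it to the proteasome and also restrains polyamine uptake. Its translation needs a ribosomal frameshift that polyamines promote. The frameshift site is shown in capitals within 45 bases of the Oaz1 transcript (GENCODE M21; gene at chr10:80826656-80829290), beside the same stretch of the pseudogene Oaz1-ps (chr17:17345242-17346204), which also has a row in the table.
Oaz1: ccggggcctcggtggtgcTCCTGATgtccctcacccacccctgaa
Oaz1-ps: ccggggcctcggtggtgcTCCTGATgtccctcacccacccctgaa
Both stretches are the same, with that of Oaz1 read from a transcript that keeps the whole site. The longest Oaz1 transcript leaves out 1 base at the site. Over 681 aligned bases, gaps not counted, this longest transcript and that of Oaz1-ps differ at 1 base. Of the 50-base windows of Oaz1-ps, 92.1% are found in Oaz1.

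Oaz1 was at 298.5, 333.1, 340.2 and 255.6 FPKM in the Nrp-1+ libraries and at 301.6, 266.2, 307.3 and 294.1 FPKM in the Nrp-1- libraries. Oaz1-ps was at 417.5, 356.6, 381.5 and 499.9 FPKM and at 370.7, 416.0, 399.6 and 409.2 FPKM. In both groups the library with the lowest Oaz1 value had the highest Oaz1-ps value. The sum of both rows was 716.1, 689.7, 721.8 and 755.5 FPKM in Nrp-1+ and 672.3, 682.2, 706.9 and 703.4 FPKM in Nrp-1- iTreg. Neither Oaz1 alone (log2 fold change 0.06, 95% interval -0.15 to 0.27, limma adjusted p = 0.612) nor the sum (0.06, interval -0.02 to 0.13, adjusted p = 0.178) passed the threshold. How the fragments of Oaz1 were divided between both rows was not tested. The GENCODE M21 transcripts are 1071 bases long for Oaz1 and 685 for Oaz1-ps. As FPKM is divided by length, the sum can itself depend on that division.

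**Figure D2:**
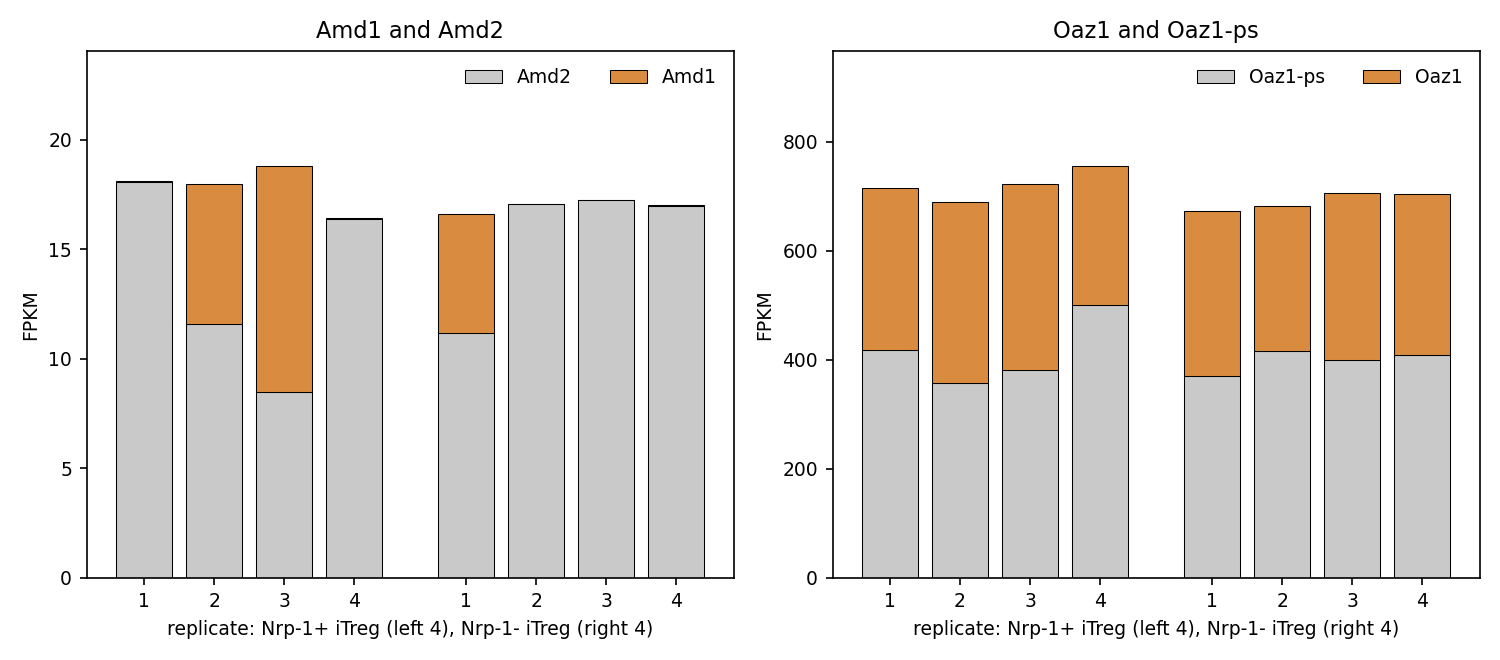
FPKM (vertical axis) of Amd1 stacked on Amd2 and of Oaz1 stacked on Oaz1-ps in each of the 8 libraries (horizontal axis, replicate number within each group). The split between the copies changed from library to library, while the summed bars stayed within 16.4 to 18.8 FPKM and 672.3 to 755.5 FPKM.

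Azin1, at chr15:38487430-38519294, encodes antizyme inhibitor 1, a relative of ornithine decarboxylase that lacks its activity and takes antizyme away from it. The values were 22.8, 22.5, 23.0 and 20.8 FPKM in the Nrp-1+ libraries and 19.9, 17.7, 18.2 and 18.9 FPKM in the Nrp-1- libraries. All 4 Nrp-1+ libraries were above the Nrp-1- libraries, with the closest pair being Nrp-1+ replicate 4 and Nrp-1- replicate 1. Azin1 was 19.3% higher in Nrp-1+ iTreg (22.3 ± 1.03 against 18.7 ± 0.925 FPKM, log2 fold change 0.24, SE 0.04, 95% interval 0.14 to 0.34, limma adjusted p = 0.00294, exact permutation p = 0.0286). None of its 50-base windows occurs in another gene.

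Set against the summed antizyme rows within each library, Odc1 had a log2 ratio of -3.96 ± 0.04 in Nrp-1+ and -4.30 ± 0.06 in Nrp-1- iTreg. These ratios did not overlap, and their difference of 0.34 is 1.26-fold. Azin1 against the same sum differed by 0.19 or 1.14-fold, and there the groups overlapped through Nrp-1+ replicate 4 and Nrp-1- replicate 1. The ratios to Oaz1 alone were planned before the sum was added. Against Oaz1 alone, Odc1 differed by 0.33 and Azin1 by 0.19, both without overlap.

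Sat1, at chrX:155213126-155216449, encodes spermidine/spermine N1-acetyltransferase, which marks polyamines for export or back-conversion. It was the only one of the 10 genes that was lower in Nrp-1+ iTreg past the threshold. The FPKM was 115.2, 121.4, 124.7 and 113.4 in Nrp-1+ iTreg and 152.8, 155.5, 154.4 and 158.2 in Nrp-1- iTreg. The highest Nrp-1+ library stayed below the lowest Nrp-1- library. The means were 118.7 ± 5.29 and 155.2 ± 2.28 FPKM, a change of -23.5% (log2 fold change -0.39, SE 0.03, 95% interval -0.46 to -0.31, limma adjusted p = 4.28e-05, exact permutation p = 0.0286). Under the alternatives tried, the log2 fold change stayed between -0.44 and -0.36. Odc1 and Sat1, which build and acetylate polyamines, ranked 920 and 927 by size among the 4282 genes past the threshold, in opposite directions. The log2 ratio of Odc1 to Sat1 was -1.36, -1.48, -1.37 and -1.24 in Nrp-1+ iTreg and -2.10, -2.20, -2.08 and -2.21 in Nrp-1- iTreg. The ratio was thus 1.72-fold higher in Nrp-1+ iTreg, with no overlap, and this holds whatever the scaling between libraries.

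**Figure D3:**
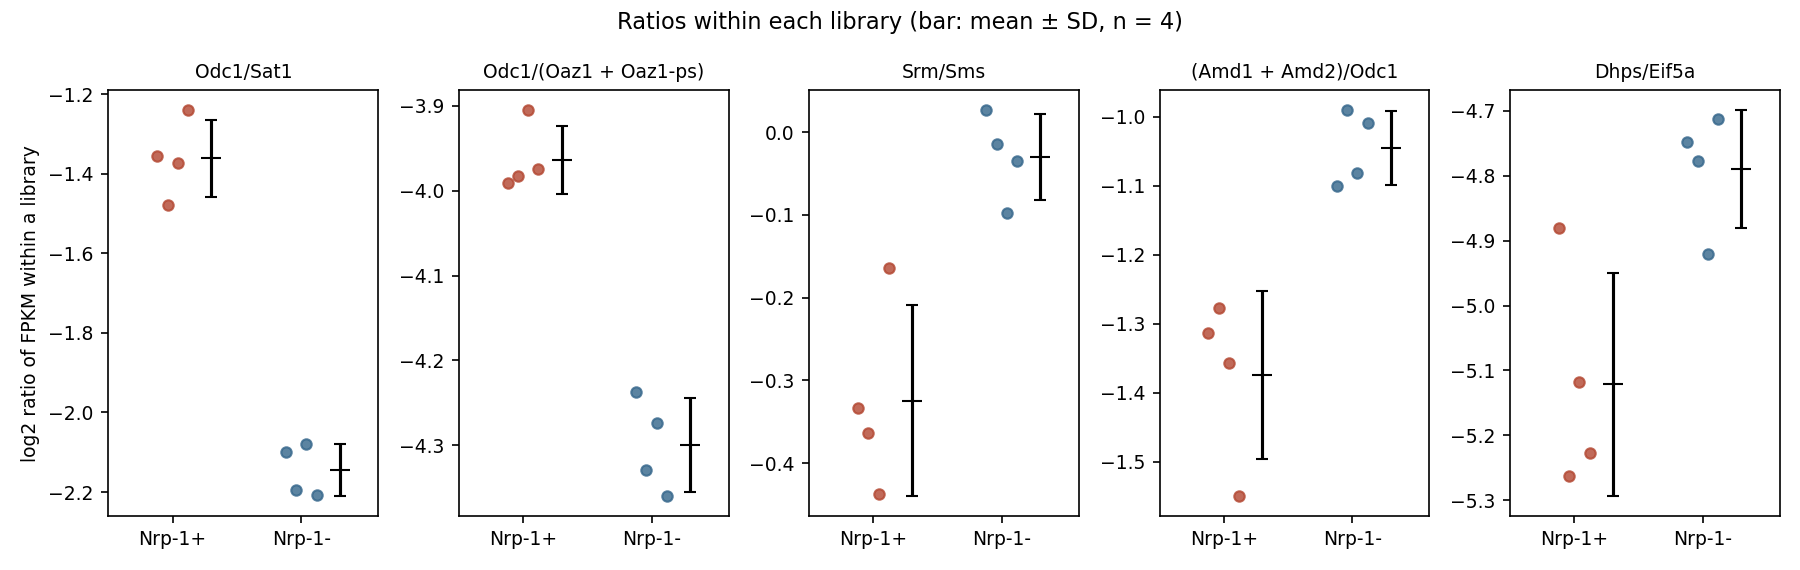
Log2 ratio of FPKM within each library (vertical axes, which do not start at 0) for 5 gene pairs in Nrp-1+ iTreg (red) and Nrp-1- iTreg (blue), with the mean ± SD of 4 libraries. The groups were apart for Odc1 to Sat1 (difference 0.78), Odc1 to Oaz1 + Oaz1-ps (0.34), Srm to Sms (-0.29) and Amd1 + Amd2 to Odc1 (-0.33), and overlapped for Dhps to Eif5a.

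By mean FPKM over the 8 libraries, a level per transcript length, Eif5a stood first (430.1), followed by Oaz1 (299.6), Sat1 (136.9), Odc1 (40.7), Azin1 (20.5), Dohh (18.8), Sms (17.9), Srm (15.8), Dhps (13.9) and Amd1 (2.79). The ranges over libraries did not overlap between neighbours among the first 4 genes, nor between Odc1 and Azin1. From Azin1 down to Dhps each range overlapped the next. Eif5a was at the percentile 97.8 of tested genes, and Odc1 at 76.9. The places of Oaz1 and Amd1 in this order do not count their copies. Oaz1 and Oaz1-ps summed to 672.3 to 755.5 FPKM, above every Eif5a value.

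The other genes of polyamine and hypusine biology were 32 in number, of which 20 were tested, 8 were higher, 4 were lower, and 8 did not pass. The shares of all tested genes, for this count and those of the smaller lists below, were 20.9% higher and 20.0% lower, and lists of 1 to 5 tested genes are too short to set against them. Their median log2 fold change was 0.03. Of 2 genes listed for the eIF5A paralog and eIF5A export, both were higher. Eif5a2 rose by 16.7% (3.97 ± 0.309 against 3.40 ± 0.165 FPKM, limma adjusted p = 0.0367), and Xpo4, the exportin that carries eIF5A out of the nucleus, rose by 14.4% with overlapping groups (8.13 ± 0.115 against 7.11 ± 0.738 FPKM, adjusted p = 0.0482). This count fell to 0 or 1 when any 1 of the 8 libraries was left out.

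The precursor supply list held 5 tested genes, of which 3 were higher and 1 was lower. Oat, the mitochondrial aminotransferase that links ornithine and glutamate semialdehyde, had the largest increase among the polyamine genes past the threshold, 57.4 ± 0.452 against 38.5 ± 1.82 FPKM (log2 fold change 0.57, limma adjusted p = 4.47e-06). Aldh18a1, which makes glutamate semialdehyde from glutamate, was at 31.6 ± 1.30 against 25.4 ± 0.917 FPKM (0.30, 0.000356). Both subunits of S-adenosylmethionine synthetase passed, in opposite directions: the catalytic Mat2a was 16.2% higher (57.4 ± 1.07 against 49.3 ± 1.17 FPKM, adjusted p = 0.000230), and the regulatory Mat2b decreased by 9.63% (79.6 ± 2.32 against 88.0 ± 3.04 FPKM, adjusted p = 0.00717). The call of Mat2b was lost after quantile normalization (adjusted p = 0.0662), where the log2 fold change was -0.15. Amd2, described above, was the remaining tested gene. Agmat and Azin2 were under the filter, and Otc and Mat1a were listed at 0 in all libraries.

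Of 3 tested genes for polyamine breakdown and back-conversion, 0 were higher and 1 was lower in limma (at an unadjusted p under 0.05, also 0 and 1). Spermine oxidase, Smox, was lower, at 17.6 ± 0.865 against 20.1 ± 0.915 FPKM (limma adjusted p = 0.0116). The N1-acetylpolyamine oxidase Paox (7.79 against 7.85 FPKM, adjusted p = 0.882) and the N8-acetylspermidine deacetylase Hdac10 (5.61 against 5.80 FPKM, adjusted p = 0.604) did not pass. Aoc1 was under the filter, and Sat2 and Satl1 were listed at 0. Of the other antizymes, Oaz2 measured 31.8 ± 0.577 against 33.2 ± 0.749 FPKM (adjusted p = 0.0827), and Oaz3 was under the filter.

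Transport genes were 4 in the test, with 2 higher and 1 lower. The cationic amino acid carrier Slc7a1, which brings in arginine, was 41.7% higher in Nrp-1+ iTreg (10.0 ± 0.541 against 7.07 ± 0.201 FPKM, limma adjusted p = 6.49e-05). The P5B-ATPases moved apart: Atp13a3 was at 29.0 ± 0.886 against 26.0 ± 0.669 FPKM (adjusted p = 0.00360), while Atp13a2, the lysosomal polyamine exporter, was at 11.7 ± 0.295 against 13.2 ± 0.203 FPKM (adjusted p = 0.00170). Slc3a2 did not pass (adjusted p = 0.115), Slc18b1 was under the filter and Slc7a2 was listed at 0.

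Spermidine and spermine synthesis release methylthioadenosine, which is salvaged to methionine. All 5 genes of this route were tested. Apip was 37.3% higher (24.3 ± 2.06 against 17.7 ± 1.45 FPKM, limma adjusted p = 0.00193) and Adi1, a later enzyme of the route, was lower (23.5 ± 1.08 against 29.6 ± 1.78 FPKM, adjusted p = 0.00103). Mtap, which takes the first step, did not pass (15.2 against 16.1 FPKM, adjusted p = 0.101), nor did Mri1 (0.550) and Enoph1 (0.146).

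A list of 11 genes of translation held the elongation factors Eef1a1, Eef1b2, Eef1d, Eef1g and Eef2, the termination factors Etf1 and Gspt1, the initiation factors Eif5 and Eif5b, the ribosome recycling factor Abce1 and Eef1e1, a part of the multi-synthetase complex. Their log2 fold changes were below 0 in 10 of 11 genes, against 5649 of all 10467 tested genes, the exception being Gspt1 (0.06, limma adjusted p = 0.135). In limma 0 of the 11 were higher and 6 were lower in Nrp-1+ iTreg (20.9% and 20.0% of all tested genes), with a median log2 fold change of -0.12. At an unadjusted p under 0.05 in limma, 0 were higher and 7 lower. In each alternative 4 to 8 were lower and 0 higher, with the Mann-Whitney test read at an unadjusted p under 0.05. Those past the threshold were Eif5 (-0.20, limma adjusted p = 0.00143), Eef1e1 (-0.19, 0.0101), Eef1d (-0.16, 0.0106), Abce1 (-0.16, 0.0195), Eef2 (-0.12, 0.0149) and Eef1b2 (-0.12, 0.0418), given as log2 fold changes and adjusted p. Of these 6, 3 are elongation factors (Eef1d, Eef2 and Eef1b2), and none of the 3 passed after quantile normalization, where Eef1d was at -0.19 (limma adjusted p = 0.0524) and Eef1b2 at -0.11 (0.678). Eef2, the translocase, was at 2467 ± 79.5 against 2680 ± 32.6 FPKM, and its log2 fold change was -0.04 after quantile normalization (adjusted p = 0.842). Myc, a transcription factor known to drive Odc1 and other polyamine genes, measured 57.4 ± 0.514 against 56.5 ± 2.27 FPKM (log2 fold change 0.02, adjusted p = 0.537), and Mycn was under the filter.

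**Figure D4:**
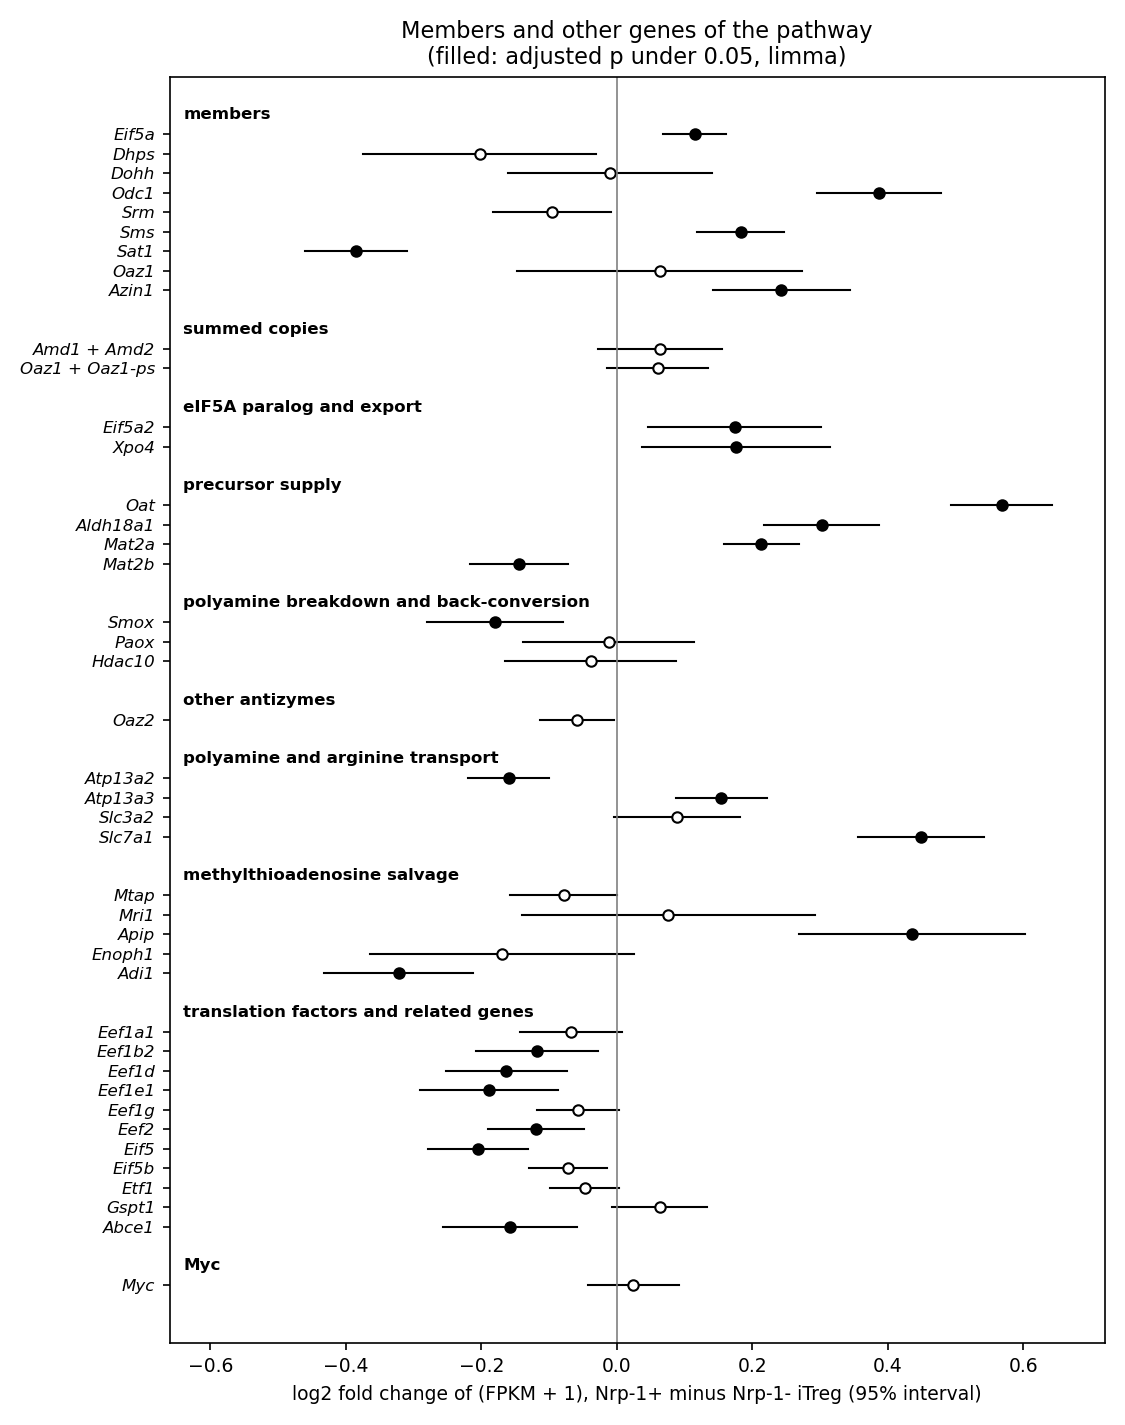
Log2 fold change of FPKM + 1 between Nrp-1+ and Nrp-1- iTreg (horizontal axis; points, with 95% intervals as lines) for 9 of the 10 genes, the summed copies and the other tested genes of the pathway, filled where the limma adjusted p was under 0.05. Amd1 and Amd2 are drawn as their sum only; Oat lies farthest to the right (0.57) and Sat1 farthest to the left (-0.39), while 6 of the 11 translation genes are filled and left of 0.

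Because Myc binds the E-box CACGTG, this motif, which reads the same on both strands, was searched from 250 bases before to 50 after each annotated start (RefSeq, GRCm38.p6). Windows were at hand for 8 of the 10 genes, 14 windows in all, and none for Srm and Azin1. The motif was in 5 windows of 3 genes, Eif5a, Dohh and Sms, against 7.15% of all 32851 promoter windows. Eif5a alone had 6 of the 14 windows. Windows of 1 gene can overlap, so they are not independent, and bases outside the windows were not searched. The sites are shown as 30 bases on the strand of the gene with the E-box in capitals.
Eif5a, chr11:69920791-69920820, minus strand: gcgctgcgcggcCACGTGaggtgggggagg
Eif5a, chr11:69921443-69921472, minus strand: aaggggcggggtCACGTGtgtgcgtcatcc
Dohh, chr10:81384424-81384453, plus strand: gcccagcatggtCACGTGgccatcaagatg
Sms, chrX:157492466-157492495, minus strand: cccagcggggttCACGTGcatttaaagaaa
Of these 3 genes, Eif5a and Sms were higher in Nrp-1+ iTreg and Dohh was not. The ATF4-type motif TGATGNAA was in 0 of the 14 windows (3.97% of all windows), and the E2F-type motif TTTNGCGC, both sought on both strands, was in 1, of Sms (1.38% of all windows). These are matches of letters, not measured binding.

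Genes with profiles most like those of Eif5a and Odc1 were sought among 6239 genes of at least 10 FPKM, by the root mean square difference of log2(FPKM + 1), centred on its mean, over the 8 libraries. For Eif5a these were Pcbp1 (0.0136), Wdtc1 (0.0143), Ptpn9 (0.0145), Cd5 (0.0158) and Inpp5b (0.0161). For Odc1 they included Gata1 (0.0326), Pnp (0.0341), Ywhah (0.0378) and St3gal2 (0.0414). The same measure for a flat profile was 0.0599 from Eif5a and 0.200 from Odc1.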

How the data were processed

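Libraries of both sorted fractions (4 each) were grouped by the labels. FPKM were computed by the authors in Cufflinks after read processing in the CLC Genomics Workbench, and the deposited table has 1 FPKM column per library. The submitters' processing notes name GRCm38 and mm10, while the annotation and aligner settings are not given in the sources used here. The labels name a SMARTER kit and the paper a directional polyA kit. FPKM is relative to all mapped fragments, so a library taken up by short RNA genes can shift the others, and depth per library is known only in relative terms, from genes under 0.3 FPKM. Without counts, no counting interval can be given.

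Genes with a mean of at least 1 FPKM (10467 of 23361) were tested on log2(FPKM + 1), a scale that understates the change of low genes, with limma 3.58.1 (lmFit, eBayes with intensity trend) in R 4.3.3 and Benjamini-Hochberg adjustment over all of them, and single genes with an exact two-sided permutation test of mean FPKM. With 4 against 4 libraries the exact permutation test cannot go below p = 0.0286. Python 3.11.15, numpy 2.4.6, scipy 1.17.1, pandas 2.3.3, matplotlib 3.10.9 and Biopython 1.88 were used for the rest. The fit was tested on simulated data. The 10 genes, the other lists and the rules were chosen with earlier results of these data known. All genes of the 10, listed pathway genes past the threshold, those under the filter or at 0, and the 5 nearest profiles of Eif5a and Odc1 are named, except for 3 genes that are not reported here. Azin2, Aoc1, Hbb-bs and Adgre1 were found under the older symbols Adc, Abp1, Beta-s and Emr1. Nothing states whether same-numbered libraries of both groups came from 1 culture, and the main fit did not pair them. Sequences are from GENCODE M21 transcripts and RefSeq promoter windows (GRCm38.p6). Shared windows are runs of 50 bases of the longest transcript found in transcripts of other genes. The fit was repeated with pseudocounts of 0.1 or 0.5, without the filter, with a 5 FPKM filter, with median-of-ratios and quantile scaling, the replicate block, no trend, array weights, no short RNA genes (791 symbols), a GC and length correction (splines with 5 degrees of freedom, 99.5% of tested genes), without and with the block, a Mann-Whitney test and each library left out. The Mann-Whitney test was read at an unadjusted p under 0.05, unlike the other alternatives. Summing Amd1 with Amd2 and Oaz1 with Oaz1-ps was added after seeing the data.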

Additional observations from a re-analysis of the deposited data

Results flagged for a closer look

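In 7 of 110 groups of 4 values, 1 library lay far from the other 3 by Dixon's test at the 95% level, where chance gives about 5.5. Dhps was 13.6 FPKM in Nrp-1- iTreg replicate 3 and 15.3 to 15.5 FPKM in the others of its group. Sms was 18.3 FPKM in Nrp-1+ iTreg replicate 4 and 19.3 to 19.5 FPKM in the others. Amd1 was 5.47 FPKM in Nrp-1- iTreg replicate 1 against 0.0231 to 0.0289 FPKM, and Amd2 in the same library was 11.2 FPKM against 17.0 to 17.2 FPKM. The log2 ratio of Amd1 to Odc1 in that library was -2.71, against -10.5 to -10.2. Eef2 was 2586 FPKM in Nrp-1+ iTreg replicate 4 and 2417 to 2435 FPKM in the others. The log2 ratio of Azin1 to Oaz1 + Oaz1-ps in Nrp-1+ iTreg replicate 4 was -5.19, against -4.97 to -4.94 in the other 3 libraries.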

How the results depend on the processing

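Odc1, Sms, Azin1 and Sat1 kept their direction and a p under 0.05 in all 14 alternatives and in the 8 fits that left out 1 library each. This p was adjusted except in the Mann-Whitney test. There the unadjusted p was 0.0286 for each of these genes, the smallest that 4 against 4 libraries allow. Their log2 fold changes were 0.36 to 0.41, 0.13 to 0.20, 0.21 to 0.27 and -0.44 to -0.36. The count of higher genes among the 10 was 3 or 4, with 3 where Eif5a was lost: under quantile normalization (limma adjusted p = 0.290, with a log2 fold change of 0.12 against 0.11), the GC and length correction (0.407, with 0.07) and the same correction with the replicate block (0.498). The count of lower genes was 2 instead of 1 under quantile normalization, array weights, the fit without short RNA genes and the GC and length correction, without and with the block, and 1 to 2 when single libraries were left out; the added gene was Srm or Dhps. Dohh moved between -0.066 and 0.042 when single libraries were left out: 0.0082 without Nrp-1+ replicate 1, 0.042 without Nrp-1+ replicate 2 and 0.0092 without Nrp-1- replicate 3. Over all tested genes, 1555 to 2300 were higher and 1675 to 2467 lower. Of the other polyamine and hypusine genes 6 to 8 were higher and 3 to 5 lower. Deviations of same-numbered libraries from their group means correlated at -0.54, -0.02, 0.01 and -0.50. Without short RNA genes the values were -0.04, -0.07, -0.08 and -0.11. Such correlations cannot tell whether same-numbered libraries came from 1 culture, which nothing states. The replicate block alone changed no call among the 10 genes (Eif5a limma adjusted p = 0.0286). The calls of Xpo4, Smox, Eef1b2 and Eef2 were lost with the block (limma adjusted p 0.0590, 0.0523, 0.119 and 0.0792), with the same log2 fold changes. Quantile normalization lost those of Eif5a2, Xpo4, Mat2b, Eef1b2, Eef1d and Eef2, at log2 fold changes of 0.13, 0.14, -0.15, -0.11, -0.19 and -0.04 (against 0.17, 0.18, -0.14, -0.12, -0.16 and -0.12). Amd1 had no value with the filter at 5 FPKM, and its log2 fold change ran from 0.06 with the copies summed to 1.65. The causes were not tested. Depth limits low genes such as Eif5a2, and absolute depth is unknown.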
